A study of Mus musculus with 6 samples.

Results

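Peroxisomes are single-membrane organelles of liver cells that oxidise fatty acids, D-amino acids, urate and 2-hydroxy acids, and that make and destroy hydrogen peroxide. Peroxins, encoded by Pex genes, assemble the membrane and import folded enzymes into the matrix with the help of shuttling receptors. In liver the matrix also hosts glyoxylate detoxification, bile acid conjugation, the first steps of ether lipid synthesis and the turnover of coenzyme A. The genes described here are a named list of 44: 13 peroxins, 4 peroxisome membrane proteins and 27 matrix enzymes. They were matched by symbol to the probe sets of a 3' expression array, with 1 probe set per gene, the one with the highest mean. This gave 42 measured genes (13 peroxins, 4 membrane and 25 matrix) out of 18193 measured in all. Prdx5 and Paox are not analysed here.

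The study compared whole liver of male mice, 18 weeks of age and fed chow, from 2 inbred strains. BKS (C57BL/KS) was the control strain, whose arrays are titled as wild type, and NZO (New Zealand Obese) is a polygenic model that becomes obese and diabetic by this age. Each strain had 3 arrays. No single allele separates the groups, so obesity, diabetes and strain background cannot be told apart. In whole tissue, fewer hepatocytes and less RNA per hepatocyte cannot be told apart either. All values are log2 RMA expression, and every difference is NZO minus BKS.

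Array medians lay between 5.08 and 5.22. NZO replicate 1 and BKS replicate 1, whose titles carry the number 1, had the lowest spiked-in hybridisation controls (means of 7.88 and 8.90, against 9.78 to 11.21 on the other arrays). Hepatocyte markers gave a log2 summed level of 17.27 to 17.36 in BKS and of 17.37 and 17.36 in NZO replicates 2 and 3, but 16.34 in NZO replicate 1. The beta-actin 3' minus 5' difference, a sign of RNA truncation, ranged over 1.72 to 2.33 for BKS arrays, above the 1.29 to 1.39 of the NZO arrays. None of 51 measured cell type markers passed the test in limma. At an unadjusted p below 0.05 there were 8, against 2078 of all 18193 genes. With the block described below 3 were called, against 6.55% of all genes. These 3 were the sinusoidal endothelial Stab2, Pecam1 and Fcgr2b, all higher in NZO. The 7 endothelial markers had summed levels of 9.997 to 10.548 in BKS and 10.547 to 11.22 in NZO, which overlap. The part of these shifts in the results below was not tested.

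Of the 42 genes, 1 passed the test at an adjusted p below 0.05: Nudt19, a coenzyme A diphosphatase of the matrix, was lower in NZO. That is 2.38% of the members, against 0.742% of all genes tested (0.324% higher and 0.418% lower in NZO). The other 41 did not pass, and none was called higher. At an unadjusted p below 0.05 limma gave 4 members (1 peroxin, 0 membrane and 3 matrix genes), and 2078 of all 18193 genes. Of the members 29 lay below 0 (69%), a share close to the 68.4% of the 9622 genes with a mean of at least 6 (55.1% of all genes). Their medians were -0.18 for peroxins, 0.22 for membrane genes and -0.30 for matrix genes. The median was -0.03 over all genes and -0.20 over these 9622 brighter genes. When the arrays were normalised again by quantiles or by cyclic loess, 18 and 15 members lay below 0 (42.9% and 35.7%). The peroxin median turned to 0.08 and 0.10, and the matrix median was -0.05 and 0.02. Those normalisations moved the median of the brighter genes to -0.05 and -0.02. Of the brighter genes 55.3% and 51.8% then lay below 0 (52.5% and 50.7% of all genes). These shares were not tested. The strains did not overlap in 7 members (16.7%), 6 with NZO below and 1 with NZO above. Of all genes 17% did not overlap (10.9% with NZO below and 6.11% above), so this share is not a result about peroxisomal genes.

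**Figure D1:**
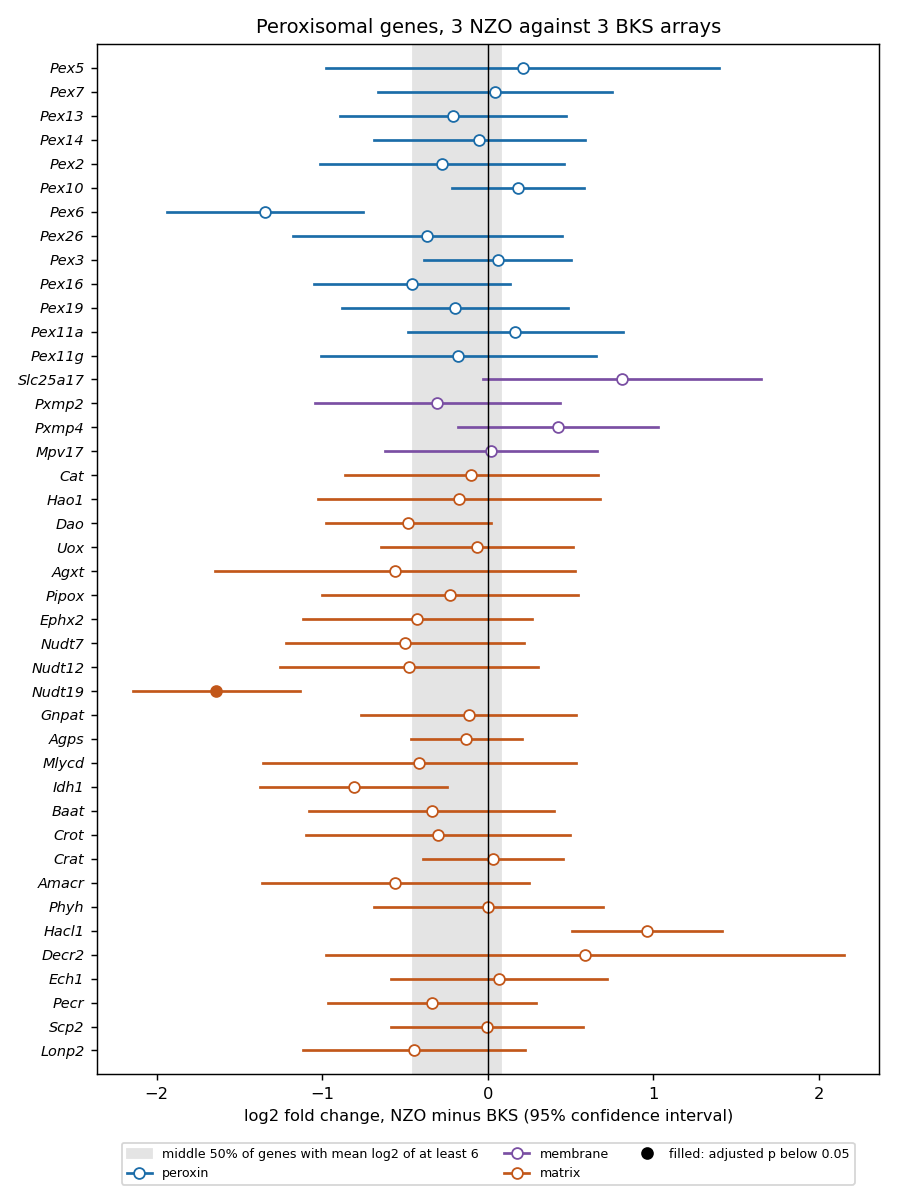
Log2 fold change (NZO minus BKS, x axis) with its 95% confidence interval for the 42 measured genes, coloured as peroxin, membrane or matrix. The grey band spans the middle 50% of genes with a mean of at least 6. Nudt19 (filled) is the gene past the test, at -1.64.

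A fit with the 2 arrays titled number 1 as a block changed no fold change but lowered the error of many genes. It called 6.55% of all genes (1.51% higher and 5.04% lower), and 1074 of the 9622 genes with a mean of at least 6. Of the 42 members it called 5 (11.9%): Nudt19, Pex6 and Idh1 lower, Slc25a17 and Hacl1 higher. Without both number 1 arrays, a comparison of 2 against 2 called 5.01% of all genes (2% higher and 3.02% lower), and 783 of the 9622. It called the same members except Idh1 (adjusted p = 0.0972). The member shares were not tested against those of the brighter genes. The 4 members called in both of these fits are shown by the 250 bases before their start (RefSeq, build GRCm38.p6), since a strain difference was called for them. They are Nudt19 (chr7:35555929-35556178, minus strand), Pex6 (chr17:46711226-46711475, plus strand), Hacl1 (chr14:31640966-31641215, minus strand) and Slc25a17 (chr15:81360766-81361015, minus strand). The annotated span of Nudt19 (chr7:35547185-35558643) holds its whole window, so the start used is not the outermost of that gene, whereas the windows of Pex6, Hacl1 and Slc25a17 lie outside their gene's span. Capitals mark a GC box (GGGCGG) or a CCAAT box (CCAAT) on either strand.
Nudt19: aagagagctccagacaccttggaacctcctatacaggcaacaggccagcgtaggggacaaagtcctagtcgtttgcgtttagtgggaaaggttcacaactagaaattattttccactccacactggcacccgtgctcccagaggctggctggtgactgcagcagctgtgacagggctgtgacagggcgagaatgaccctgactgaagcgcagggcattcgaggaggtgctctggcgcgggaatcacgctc
Pex6: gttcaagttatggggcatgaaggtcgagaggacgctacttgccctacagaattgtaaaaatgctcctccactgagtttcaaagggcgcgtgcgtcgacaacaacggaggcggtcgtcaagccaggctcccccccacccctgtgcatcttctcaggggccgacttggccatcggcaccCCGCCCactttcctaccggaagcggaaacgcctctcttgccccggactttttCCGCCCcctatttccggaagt
Hacl1: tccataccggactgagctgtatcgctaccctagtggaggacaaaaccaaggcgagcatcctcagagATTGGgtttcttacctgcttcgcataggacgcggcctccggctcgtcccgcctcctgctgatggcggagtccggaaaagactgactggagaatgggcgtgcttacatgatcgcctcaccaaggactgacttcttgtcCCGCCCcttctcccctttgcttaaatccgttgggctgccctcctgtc
Slc25a17: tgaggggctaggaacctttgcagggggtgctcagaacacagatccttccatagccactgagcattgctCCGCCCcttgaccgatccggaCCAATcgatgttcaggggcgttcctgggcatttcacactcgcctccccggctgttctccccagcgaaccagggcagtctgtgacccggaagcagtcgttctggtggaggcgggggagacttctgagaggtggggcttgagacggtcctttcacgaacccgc
The window of Nudt19 holds neither motif. That of Pex6 holds 2 GC boxes and no CCAAT box, and those of Hacl1 and Slc25a17 hold 1 of each. Promoters, each with 50 further bases, were in the table for 34 of the 42 measured members. These genes have 42 promoters in it. GGGCGG was in 27 of the 42 (64.29%), against 35.66% of all 32851 promoters of that length, and CCAAT in 14 (33.33%), against 37.41%. The direct repeat that PPAR alpha binds in its exact form (AGGTCANAGGTCA, both strands) was in 0 of the 42 and in 0.0396% of all promoters. Its half-site AGGTCA, which the direct repeat contains, was in 5 of the 42 (11.9%; Cat, Dao, Pex11g, Phyh and Scp2), against 16.26% of all. All promoters served as the comparison, whatever the brightness of their genes, and promoters of the same gene were each counted. The part of brightness in these shares was not tested, and they were not shown to be particular to peroxisomal genes. Motifs are a description of these letters and mark no binding site.

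Among peroxins, the largest difference was that of Pex6, one of the ATPases that pull the import receptor back out of the membrane. Pex6 was at 10.07, 10.75 and 10.61 in BKS and at 8.77, 9.46 and 9.17 in NZO. All 3 NZO arrays thus lay below all 3 BKS arrays. The log2 fold change was -1.34 (2.54-fold, standard error 0.25) with an adjusted p of 0.0775, which passed in 5 of 15 alternative settings (among them 0.00195 with the block and 0.00645 among 2 against 2 arrays). Pex26, the anchor that holds the Pex6 complex on the membrane, was at -0.37 (adjusted p = 0.763). Its values were 7.31, 8.28 and 8.28 in BKS and 7.04, 8.02 and 7.72 in NZO, which overlap.

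Import receptors and their docking partners showed no strain difference that passed. Pex5, the receptor for enzymes with a C-terminal signal, was at 8.39, 9.38 and 10.05 in BKS and at 8.59, 9.99 and 9.87 in NZO (log2 fold change 0.21, 95% confidence interval -0.98 to 1.40). Its spread within BKS was wider than the difference, with replicate 1 low in both strains. Pex7, the receptor for the N-terminal signal, was at 10.48, 10.88 and 10.91 in BKS and at 10.12, 11.16 and 11.11 in NZO (0.04, interval -0.66 to 0.75). Pex14, the docking protein that receives both receptors, was at 8.68, 9.03 and 9.12 in BKS and at 8.31, 9.12 and 9.24 in NZO (-0.05, interval -0.69 to 0.59). In both genes NZO replicate 1 was the lowest of the 6 arrays, followed by BKS replicate 1. Pex13, the other docking protein, was at -0.21, and the RING ubiquitin ligases Pex2 and Pex10, which mark the receptor for export, were at -0.28 and 0.18.

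Genes of membrane assembly and division also did not pass. Pex16, a membrane receptor for new membrane proteins, was at 10.33, 10.54 and 10.61 in BKS and at 9.55, 10.51 and 10.04 in NZO (-0.46, adjusted p = 0.563). Pex19, the chaperone that delivers membrane proteins, was at 9.76, 10.23 and 10.41 in BKS and at 9.35, 10.22 and 10.23 in NZO (-0.20, adjusted p = 0.862). Its membrane partner Pex3 was at 0.06. The strains overlapped in all 3 genes. Pex11a, which elongates peroxisomes before they divide and is a target of PPAR alpha, was at 10.79, 10.11 and 9.71 in BKS and at 10.52, 10.38 and 10.21 in NZO (0.17, interval -0.48 to 0.82). The 3 NZO values lay inside the BKS range. Pex11g, a relative, was at -0.18.

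Of the 4 membrane genes none passed, and 3 lay above 0. Slc25a17, a carrier that exchanges coenzyme A, FAD and NAD across the peroxisome membrane, was at 8.14, 8.56 and 8.92 in BKS and at 8.60, 9.89 and 9.56 in NZO. NZO replicate 1 fell inside the BKS range, and the other 2 NZO arrays lay above it. The log2 fold change was 0.81 (1.75-fold, standard error 0.36, adjusted p = 0.452, and 0.0392 with the block). A second probe set of Slc25a17, with a mean of 6.17, gave 0.35 (standard error 0.47, adjusted p = 0.856, and 0.526 with the block). It read 6.49, 5.94 and 5.57 in BKS and 7.33, 5.46 and 6.27 in NZO, which overlap. Pxmp4 was at 10.15, 9.56 and 9.40 in BKS and at 9.84, 10.05 and 10.49 in NZO (0.42, adjusted p = 0.603), with overlap through BKS replicate 1. The channel protein Pxmp2 was at -0.30 and Mpv17, a membrane protein also placed in mitochondria, at 0.02.

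**Figure D2:**
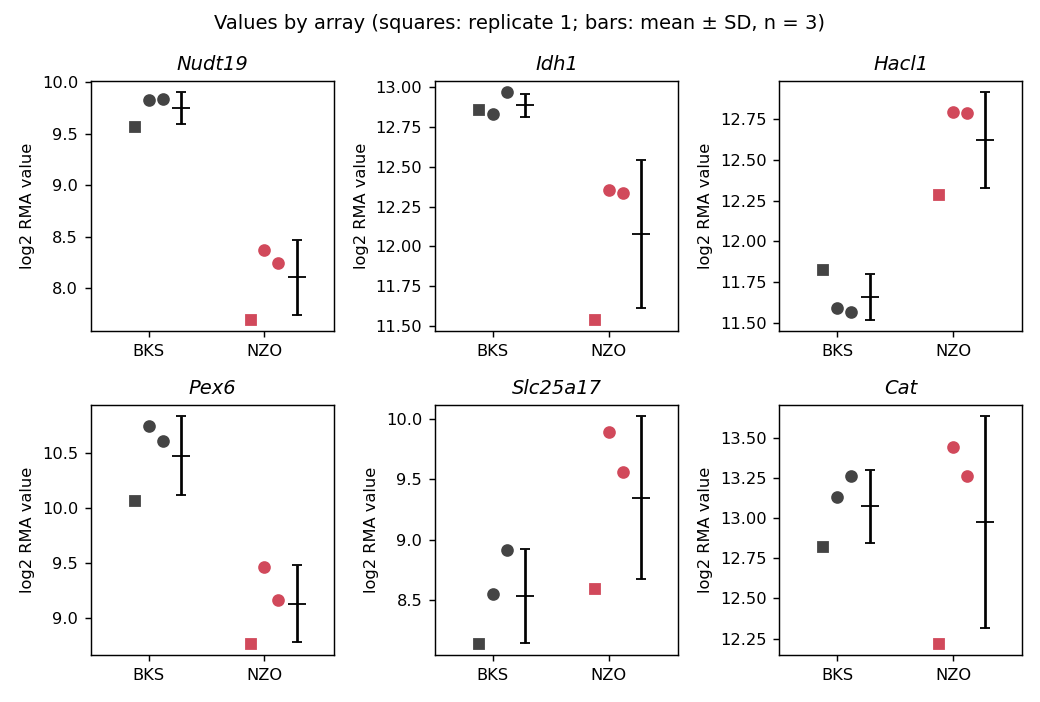
Log2 RMA values by array for Nudt19, Idh1, Hacl1, Pex6, Slc25a17 and Cat, with replicate 1 of each strain as a square and the mean ± SD (n = 3) as a bar; each y axis has its own range. NZO lies wholly below BKS for Nudt19, Idh1 and Pex6 and wholly above for Hacl1, while Cat overlaps.

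Among the 25 matrix enzymes, 1 was lower and 24 did not pass. Nudt19 was at 9.57, 9.83 and 9.84 in BKS and at 7.69, 8.37 and 8.25 in NZO. The highest NZO array was more than 1 unit below the lowest BKS array. Its mean went from 9.75 ± 0.15 (SD, n = 3) to 8.10 ± 0.36, a log2 fold change of -1.64 (3.12-fold lower, standard error 0.21, adjusted p = 0.0232). The call was lost without BKS replicate 1, 2 or 3 or NZO replicate 3 (adjusted p = 0.0534, 0.181, 0.160 and 0.120), where the log2 fold change was -1.73, -1.60, -1.59 and -1.71. A second probe set of Nudt19, almost as bright, gave a smaller difference that did not pass (-0.84, adjusted p = 0.309). The other Nudix hydrolases of the list were less far apart. Nudt7, which also cleaves coenzyme A, was at -0.50 (adjusted p = 0.606), and Nudt12, which cleaves NADH, at -0.47 (adjusted p = 0.658). No test of Nudt19 against these relatives was made.

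Branched-chain fatty acids are shortened by alpha-oxidation, in which Phyh hydroxylates phytanoyl-CoA and Hacl1 cleaves the product. Hacl1 was at 11.82, 11.59 and 11.57 in BKS and at 12.28, 12.80 and 12.79 in NZO. Every NZO array lay above every BKS array, with NZO replicate 1 the nearest to BKS. The log2 fold change was 0.96 (1.95-fold, standard error 0.19, adjusted p = 0.0938, and 0.0189 with the block). Hacl1 passed in 6 of 15 alternative settings. With 1 array left out it passed without NZO replicate 1 (1.13, adjusted p = 0.0230) and missed the threshold in the other 5 cases (adjusted p of 0.135 to 0.444). Phyh itself was at 0.00 (interval -0.68 to 0.69), and Amacr, the racemase that prepares branched acyl-CoA for beta-oxidation, at -0.56 (adjusted p = 0.609).

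Idh1, which makes NADPH in the cytosol and the peroxisome, was at 12.86, 12.83 and 12.97 in BKS and at 11.54, 12.35 and 12.34 in NZO. All NZO values lay below BKS, and replicate 1 was the lowest. The log2 fold change was -0.81 (1.75-fold, standard error 0.24, adjusted p = 0.253, and 0.0372 with the block), and -0.56 among 2 against 2 arrays. Its probe set can match other transcripts too (name ending in _s_at), as can those of Dao and Baat. A second such probe set of Idh1 gave -0.10 (adjusted p = 0.949).

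None of the peroxide-making oxidases, nor catalase, passed. Cat, which breaks down hydrogen peroxide, was at 12.82, 13.13 and 13.26 in BKS and at 12.22, 13.44 and 13.26 in NZO (-0.10, interval -0.86 to 0.67). Uox, the urate oxidase, was at 12.87, 13.18 and 13.32 in BKS and at 12.56, 13.32 and 13.30 in NZO (-0.07, interval -0.65 to 0.52). Hao1, the glycolate oxidase, was at 11.68, 12.25 and 12.26 in BKS and at 11.08, 12.44 and 12.15 in NZO (-0.17, interval -1.02 to 0.68). In these 3 genes replicate 1 was the lowest array of each strain. Pipox, which oxidises pipecolate and sarcosine, was at -0.23, and Dao, the D-amino acid oxidase, at -0.48. Dao was dim, with means of 4.75 in BKS and 4.27 in NZO.

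Agxt, the aminotransferase that turns glyoxylate into glycine, had a difference that came from 1 array. It was at 12.16, 12.10 and 12.29 in BKS and at 10.43, 12.12 and 12.31 in NZO. NZO replicate 1 was low and the other 5 arrays lay together. The log2 fold change was -0.56 (adjusted p = 0.722), and 0.03 without NZO replicate 1. Ephx2, the soluble epoxide hydrolase, was at 12.97, 13.02 and 12.96 in BKS and at 11.85, 12.86 and 12.96 in NZO. Its strains did not overlap, but the lowest BKS value (12.9573) and the highest NZO value (12.9566) were almost equal. The log2 fold change was -0.43 (adjusted p = 0.655), and -0.07 without NZO replicate 1.

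Enzymes that handle acyl groups and finish beta-oxidation did not pass. Decr2, a reductase for unsaturated fatty acids, was at 8.49, 9.90 and 10.74 in BKS and at 9.13, 11.04 and 10.71 in NZO (0.59, interval -0.98 to 2.15). Ech1, an isomerase of the same pathway, was at 12.11, 12.38 and 12.25 in BKS and at 11.67, 12.64 and 12.63 in NZO (0.07). Scp2, whose long form is the thiolase for branched chains, was at 13.96, 13.98 and 14.13 in BKS and at 13.47, 14.36 and 14.24 in NZO (0.00, interval -0.58 to 0.58). Values for the strains overlapped in all 3 genes. Pecr, a reductase of trans-enoyl-CoA, was at -0.33. Crot and Crat, which pass acyl groups to carnitine, were at -0.30 and 0.03, Mlycd, the malonyl-CoA decarboxylase, at -0.41, and the bile acid conjugating Baat at -0.34. The ether lipid enzymes Gnpat and Agps were at -0.12 and -0.13. Lonp2, the matrix protease, was at -0.44 (adjusted p = 0.623), and at -0.15 among 2 against 2 arrays. Its strains did not overlap, but only just, with 11.525 as the lowest BKS and 11.521 as the highest NZO value. Its other probe sets gave 0.29, 0.33 and 0.16, with overlap.

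To follow peroxins and matrix enzymes over the arrays, for each gene the deviation from its own mean over 6 arrays was taken, and the median of these deviations was compared by array. In NZO replicate 1 it was -0.71 for peroxins, -0.80 for matrix genes and -0.44 for membrane genes, against -0.48 for the 9622 brighter genes. In NZO replicates 2 and 3 it was 0.24 and 0.14 for peroxins and 0.22 and 0.19 for matrix genes, close to BKS replicates 2 and 3 (0.19 and 0.28, and 0.23 and 0.24). In BKS replicate 1 it was -0.24 for peroxins and -0.06 for matrix genes, against -0.06 for the brighter genes. The peroxin and matrix patterns were not tested against each other. NZO replicate 1 was the lowest of the 6 arrays in 34 of the 42 members (81%), in 10 of 13 peroxins and in 22 of 25 matrix genes, against 61.1% of the brighter genes. The other peroxisomal genes stood at -0.62 on that array, the lowest for 17 of 25. Hepatocyte markers were lowest there as well (log2 summed level 16.34, against 17.27 to 17.36 in BKS). The members are brighter than the comparison genes, with medians of 10.64 and 8.39 in BKS replicate 2. The part of brightness in this share was not tested, and the share was not shown to be particular to peroxisomal genes. Membrane genes stood at 0.28 and 0.44 in NZO replicates 2 and 3 and at -0.12 and 0.07 in BKS replicates 2 and 3.

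**Figure D3:**
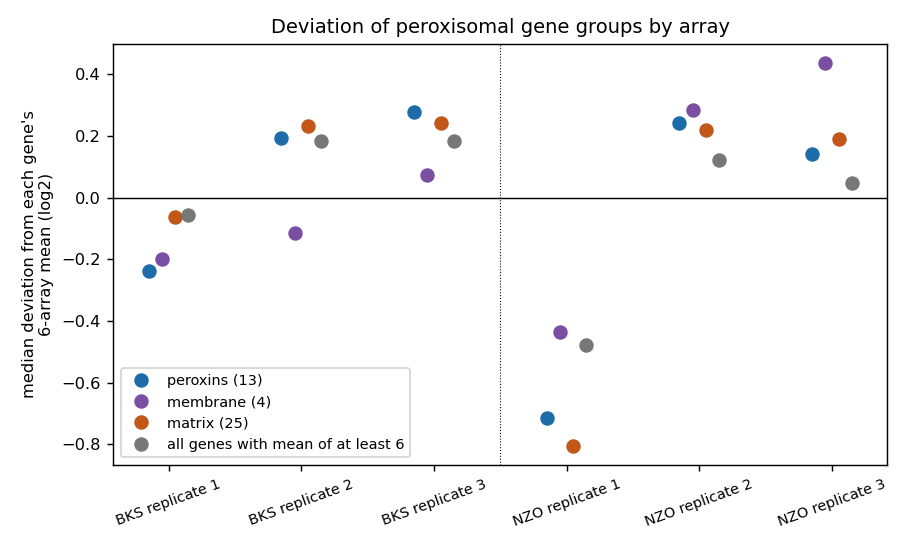
Median deviation of peroxins, membrane genes, matrix genes and all genes with a mean of at least 6 from each gene's own 6-array mean (log2, y axis), by array. NZO replicate 1 is the lowest array for every group, at -0.80 for matrix genes.

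The strain difference depended on which arrays were compared. Between the replicate 1 arrays, 36 of 42 members were lower in NZO (85.7%), as were 75.8% of the brighter genes and 63.5% of all genes, with member medians of -0.36 for peroxins and -0.60 for matrix genes, and -0.38 for the brighter genes. Between the other 2 against 2 arrays, 21 were lower and 21 higher, with medians of 0.04 and -0.06 (58.9% of the brighter genes and 49.4% of all genes were lower). The sign differed between both sets of arrays in 17 members (40.5%), in 31.6% of the brighter genes and in 39% of all genes. None of these shares was tested. Nudt19 (-1.87 and -1.52), Pex6 (-1.30 and -1.37), Hacl1 (0.46 and 1.21) and Slc25a17 (0.45 and 0.99) had the same sign in both. These genes are named because they were called both with the block and among 2 against 2 arrays. The block fit used both sets of arrays, so that choice favoured a shared sign, which is no separate test of these genes. Without NZO replicate 1 the medians were 0.12 for peroxins, 0.43 for membrane genes and 0.07 for matrix genes.

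**Figure D4:**
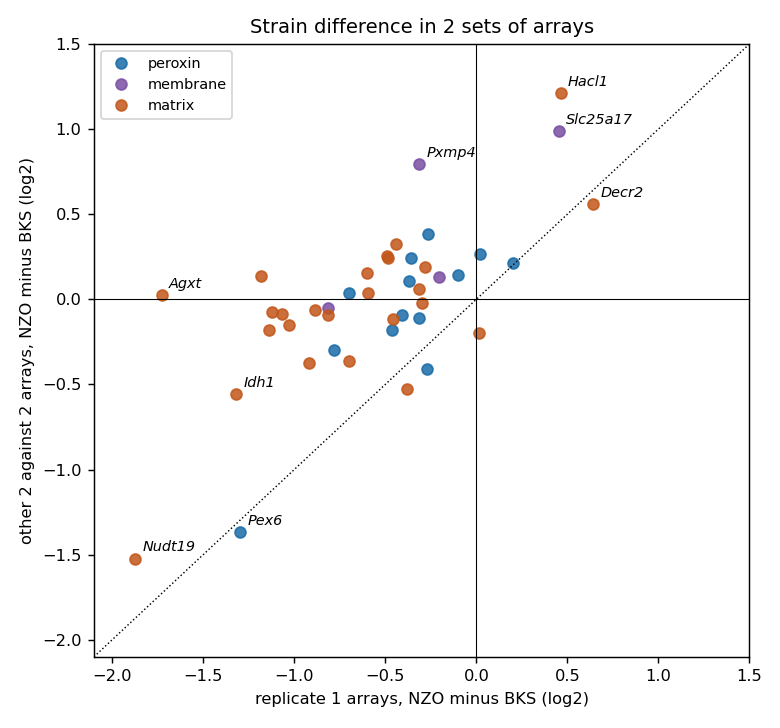
Difference NZO minus BKS (log2) between the replicate 1 arrays (x axis) and between the other 2 against 2 arrays (y axis) for the 42 members; the dotted line marks equal values. Nudt19 and Pex6 lie near the line at the lower left, while Agxt is at -1.73 on the x axis and 0.02 on the y axis.

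Second probe sets differed from the chosen one for several members. There were 36 further probe sets for 23 members, of which 26 had a mean of at least 6. Of the 36, 22 had the sign of the chosen probe set and 14 the opposite sign. None of the 36 passed, but only 176 of all 34945 probe sets did. For Nudt19 the BKS arrays read 8.96, 9.29 and 9.62 on the second probe set, and the NZO arrays 7.94, 8.68 and 8.73. There was no overlap there either, but the difference was smaller (-0.84, adjusted p = 0.309, and 0.0293 with the block). The means of the 2 Nudt19 probe sets were close (8.93 and 8.87), and the call without the block rests on the slightly brighter one. For Pex6, the 2 next brightest probe sets gave -0.89 and -1.01 (adjusted p = 0.503 and 0.415, and 0.0255 and 0.0159 with the block). The strains overlapped in both. Another with a mean of 6.55 gave the opposite sign (0.27), and a dim one (mean 5.03) gave 0.10 (adjusted p = 0.385 and 0.801 with the block). The chosen Pex6 probe set has a name ending in _x_at, which marks probes that can match other transcripts.

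Pex19 was the least uniform, with -0.20, 0.54 and -1.28 from 3 probe sets. The third read 6.55, 7.17 and 7.54 in BKS and 5.44, 6.15 and 5.83 in NZO, with no overlap (adjusted p = 0.166, and 0.0104 with the block). Crat, at 0.03 from its chosen probe set (also ending in _x_at), was at 0.67 and 0.88 from its other probe sets, in both of which the strains did not overlap (adjusted p = 0.436 and 0.156, and 0.0661 and 0.0283 with the block). Pxmp4 was at 0.87 from its second probe set, without overlap (adjusted p = 0.389, and 0.147 with the block). Nudt7 gave -0.31 to -0.66 from its other 3.

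**Figure D5:**
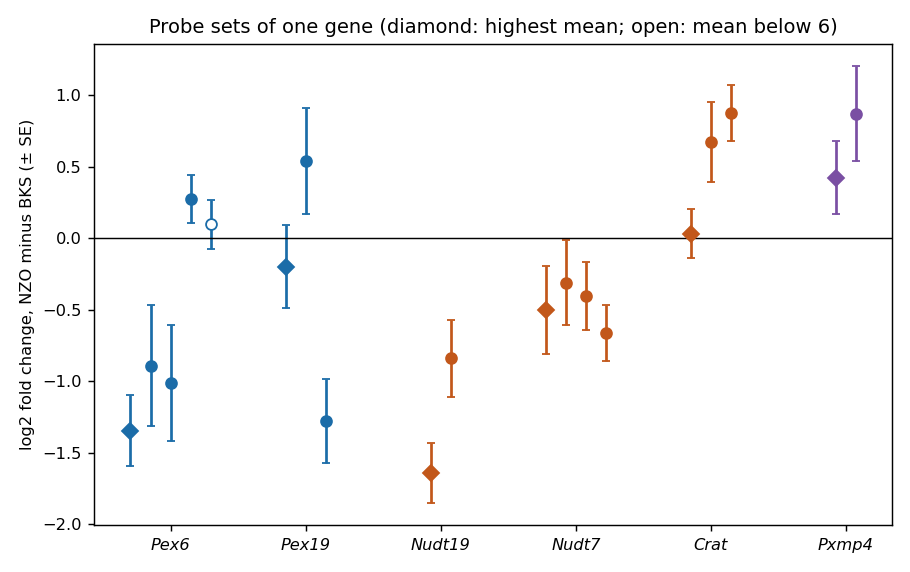
Log2 fold change (NZO minus BKS) ± SE for each probe set of Pex6, Pex19, Nudt19, Nudt7, Crat and Pxmp4, from the highest to the lowest mean within a gene; the diamond is the probe set used, and an open symbol has a mean below 6. Both Nudt19 probe sets lie below 0, while those of Pex19 run from 0.54 to -1.28.

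The other peroxisomal genes were a list of 32, of which 25 were measured. In limma 1 was higher, 0 were lower and 24 did not pass, where 0.742% of all genes were called. At an unadjusted p below 0.05 there were 4, against 2078 of all 18193 genes. The one that rose was Acot4, an acyl-CoA thioesterase, at 5.63, 5.63 and 5.57 in BKS and 7.38, 7.90 and 8.05 in NZO (log2 fold change 2.17, adjusted p = 0.00640). Its 3 BKS values were dim, below 6, so the size of this fold change is less certain than its direction. With the block, which called 6.55% of all genes, Acox3 was also higher (0.92, adjusted p = 0.0220) and Acox2 lower (-0.82, adjusted p = 0.0422). Both are acyl-CoA oxidases for branched substrates. Acox3 was dim (means of 5.02 in BKS and 5.93 in NZO). The bifunctional enzymes Ehhadh (0.42, adjusted p = 0.602) and Hsd17b4 (-0.01, adjusted p = 0.994) did not pass, nor did the transporter Abcd3 (-0.24, adjusted p = 0.815). The unmeasured genes of the list are not analysed here.

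None of 10 regulators of peroxisomal genes passed in limma, and 2 had an unadjusted p below 0.05, against 2078 of all 18193 genes. Ppara, the receptor that drives peroxisome proliferation in rodents, was at -0.03 (adjusted p = 0.989), and its partner Rxra at -0.64 (adjusted p = 0.619). The coactivator Ppargc1b and the transcription factor Foxo1 had log2 fold changes of -0.80 and -1.37 (adjusted p = 0.195 and 0.0775). The block, which called 6.55% of all genes, lowered these p-values to 0.0321 and 0.0133.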

How the data were processed

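Liver RNA of BKS and NZO mice was read on 3 arrays per strain, of a 3' expression design with 45101 probe sets. The authors deposited RMA values on the log2 scale, 1 per probe set and array. The submitters' processing notes name Affymetrix Expression Console as the software. Versions, and whether further arrays were normalised together with these, are not given in the sources used here. There are no detection calls, and the number of arrays limits the precision.

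Probe sets with exactly 1 gene symbol in the platform annotation (34945) were kept, and the one with the highest mean stood for each of 18193 genes. The 64 controls were left out. Strains, from the strain label, were compared with limma 3.58.1 (lmFit, eBayes, two-sided, no covariate) in R 4.3.3, with Benjamini-Hochberg adjustment over all 18193 genes and a threshold of 0.05. The fit was tested on simulated data with independent noise in each array. Those data had no shift of a whole array, so that test does not cover one like that of NZO replicate 1. Replicate numbers follow accession order and pair nothing. The labels do not say that each array is a separate animal; if any were not, p-values measure only the spread between these samples.

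The members, lists, tests and alternatives were chosen with earlier results of these data known, so no list was tested as a whole. Array by array values are given for members past the test with or without the block, the 3 highest and 3 lowest changes among peroxins with membrane genes and among matrix genes, and 12 fixed members. Other peroxisomal genes are named if past either fit or among 6 fixed ones. A planned search for genes most like Nudt19 is not given, because its values form 1 cluster per strain. The import signals of the proteins, also planned, were not analysed. Alternatives changed normalisation, dim filter, probe set, variance model, weights, block and arrays. Figures were drawn with matplotlib 3.10.9.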

Additional observations from a re-analysis of the deposited data

How the results depend on the processing

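Nudt19 kept its sign under all 15 alternatives and passed in 10. It did not pass with the median of its probe sets (-1.24, adjusted p = 0.0864), nor without BKS replicate 1, 2 or 3 or NZO replicate 3. With 1 array left out its log2 fold change ran from -1.77 to -1.43 and its adjusted p from 0.0109 to 0.181. Members higher and lower past the test numbered 2 and 2 with repeated quantile normalisation, with cyclic loess and among 2 against 2 arrays, 3 and 2 with array weights, 2 and 3 with the block, and 0 and 0 with the median of probe sets. They ran from 0 to 1 in each direction with 1 array left out. Over all genes, where 135 were called in the 6 arrays, these counts were 419, 429, 912, 1298, 1192 and 138, 281 with trended, robust variances, 223 with the most variable probe set, and 27 to 258 with 1 array left out.

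With 1 array left out the group medians ran from -0.34 to 0.12 for peroxins, from 0.10 to 0.43 for membrane genes and from -0.47 to 0.07 for matrix genes, with peroxins (0.12) and matrix genes (0.07) above 0 without NZO replicate 1. Of the genes given array by array, these had the opposite sign in some alternative, with no call in any. With repeated quantile normalisation and cyclic loess, Cat was at 0.21 and 0.28, Hao1 at 0.12 and 0.18, Pex14 at 0.13 and 0.19, Pex19 at 0.067 and 0.086, Scp2 at 0.25 and 0.39 and Uox at 0.22 and 0.31. With array weights Cat was at 0.069, Pex14 at 0.12, Scp2 at 0.16 and Uox at 0.044. Among 2 against 2 arrays Agxt was at 0.023, Cat at 0.15, Hao1 at 0.038, Pex14 at 0.11, Scp2 at 0.24 and Uox at 0.060. With the median of probe sets Pex16 was at 0.00070 and Pex19 at 0.54. With the most variable probe set Pex16 was at 0.46 and Scp2 at 0.023.

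With 1 array left out, signs turned within these ranges: Agxt -0.91 to 0.034, Cat -0.33 to 0.28, Decr2 -0.025 to 1.17, Ech1 -0.10 to 0.39, Hao1 -0.45 to 0.23, Pex11a -0.080 to 0.46, Pex14 -0.23 to 0.24, Pex19 -0.39 to 0.094, Pex5 -0.23 to 0.66, Pex7 -0.14 to 0.38, Scp2 -0.17 to 0.27 and Uox -0.19 to 0.19. The cause was not tested. No paired analysis was possible because the strains' titles share only the number 1. Dim signal limits Dao, Acox3 and, in BKS, Acot4.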

Other observations

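Sod1, the copper and zinc superoxide dismutase and a gene of the wider peroxisomal list, was at 6.94 in BKS replicate 1, against 12.82 and 12.63 in the other BKS arrays and 9.80, 12.36 and 12.11 in NZO. Both replicate 1 arrays were the lowest of their strain. It was chosen after its values were seen.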
